A study of Mus musculus with 5 samples.

Results

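The genes described here are 9 that endothelial cells use to start, restrain and dissolve clots: Vwf, F8, F3, Thbd, Procr, Tfpi, Plat, Plau and Plaur. They were picked by symbol from a table of 17638 genes, and all 9 were found and tested. The table comes from polyadenylated RNA of CD31-positive cells, taken from mouse hearts 5 days after myocardial infarction. There were 3 control libraries and 2 libraries called Tbx1cko, a conditional deletion of the transcription factor gene Tbx1 that the series places in the endothelium. All mice were 2 months old on a C57BL/6 background, and all had an infarct, so no group shows the uninjured heart. The promoter that drove the deletion, the alleles of the controls and the number of animals per library are not stated in the sources used here, so a p-value here speaks of library-to-library spread, which may be technical.

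A resting vessel wall keeps blood fluid. Endothelial cells store von Willebrand factor, the adhesive protein that catches platelets and carries coagulation factor VIII, and release it on injury. Tissue factor, held mostly by cells outside the vessel lumen, starts coagulation by binding factor VIIa, and tissue factor pathway inhibitor blocks that step. Thrombomodulin and the endothelial protein C receptor turn thrombin into an activator of the anticoagulant protein C. Tissue and urokinase plasminogen activators convert plasminogen into plasmin, which cuts fibrin, and the urokinase receptor holds urokinase at the cell surface.

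The control and Tbx1cko libraries were not separated by the test for any of the 9 genes. With limma, 0 of 9 members passed an adjusted p of 0.05, against 0 of all 14339 genes tested (0%), and 0 of 9 had an unadjusted p under 0.05, against 1.74% of all genes. Vwf and Thbd were lower in both Tbx1cko libraries than in every control, and F8 was higher, while the groups overlapped for the other 6. Groups that did not overlap were found for 13.9% of all genes in the lower direction and 14.2% in the higher. By edgeR and DESeq2, run on recovered reads, 0 of the 9 passed as well, against 0 (0%) and 4 (0.0279%) of all genes.

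One control, replicate 2, differed from all the other libraries and touches each result below. Its log2 values correlated with theirs at r of 0.859 to 0.889 across genes, against 0.98 to 0.988 among the others; genes are not independent, so these values describe the libraries. It lay outside the range of the other 4 for 8 of the 9 members, all but Procr, and for 82.6% of all genes. How far it lay from the other controls went with transcript GC content (Spearman rho 0.79 across 13771 genes). The log2 difference, Tbx1cko minus control, also went with GC content (rho -0.71), and less so without this library (rho -0.31). Each member is therefore given with and without this library, though leaving it out does not remove the whole GC trend. The knockout check, Tbx1, ran from 64.4 to 72.7 normalised reads in the controls and was at 17.3 and 18.3 in Tbx1cko. Recovered reads per library ran from 14689782 to 18617284. Pecam1, the gene of CD31, had 33715 to 43313 normalised reads, and the endothelial cadherin gene Cdh5 45379 to 62849, so the cells carried the RNA their label names. Lyz2, a gene of myeloid cells, had 29682 to 53428 as well.

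Coding sequence is shown for F8, the member farthest below the other libraries in control replicate 2, and for Vwf and Thbd, the members farthest above them. The middle 150 bases of the longest coding sequence of each were read from GENCODE M21 transcripts (GRCm38), with G and C in capitals.
F8: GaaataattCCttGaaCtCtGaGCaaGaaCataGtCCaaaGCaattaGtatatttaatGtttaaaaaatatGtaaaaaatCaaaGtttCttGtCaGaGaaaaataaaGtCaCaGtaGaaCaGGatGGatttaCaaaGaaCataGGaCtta
Vwf: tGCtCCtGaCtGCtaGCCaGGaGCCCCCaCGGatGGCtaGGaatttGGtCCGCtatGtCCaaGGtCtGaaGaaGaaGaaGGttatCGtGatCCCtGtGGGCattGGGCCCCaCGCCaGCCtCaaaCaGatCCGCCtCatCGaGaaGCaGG
Thbd: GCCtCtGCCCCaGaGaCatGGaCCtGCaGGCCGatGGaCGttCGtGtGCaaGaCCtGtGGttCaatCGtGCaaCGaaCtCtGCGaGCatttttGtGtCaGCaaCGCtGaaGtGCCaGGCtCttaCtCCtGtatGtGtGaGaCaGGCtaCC
The F8 stretch (chrX:75286940-75287089, minus strand) lies in exon 14 of 26, the large exon that encodes the B domain, and holds 28% G and C. The Vwf stretch (chr6:125642505-125642654, plus strand), in exon 28 of 52, which encodes the platelet-binding A1 domain and its neighbour, holds 57.3%. The Thbd stretch (chr2:148407007-148407156, minus strand), in the gene's only exon, holds 55.3%. These members were chosen for their values in that library, and the F8 stretch holds less G and C than the whole transcripts of F8, at 42.6%, where those of Vwf hold 53.9% and those of Thbd 51.4%. The members did not all follow GC content. Plaur, with the most G and C (55.7%), and Procr (54.4%) lay only 0.16 and 0.15 above the mean of the other controls on the log2 scale, while Tfpi, with the least (40.5%), lay at -2.26.

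**Figure D1:**
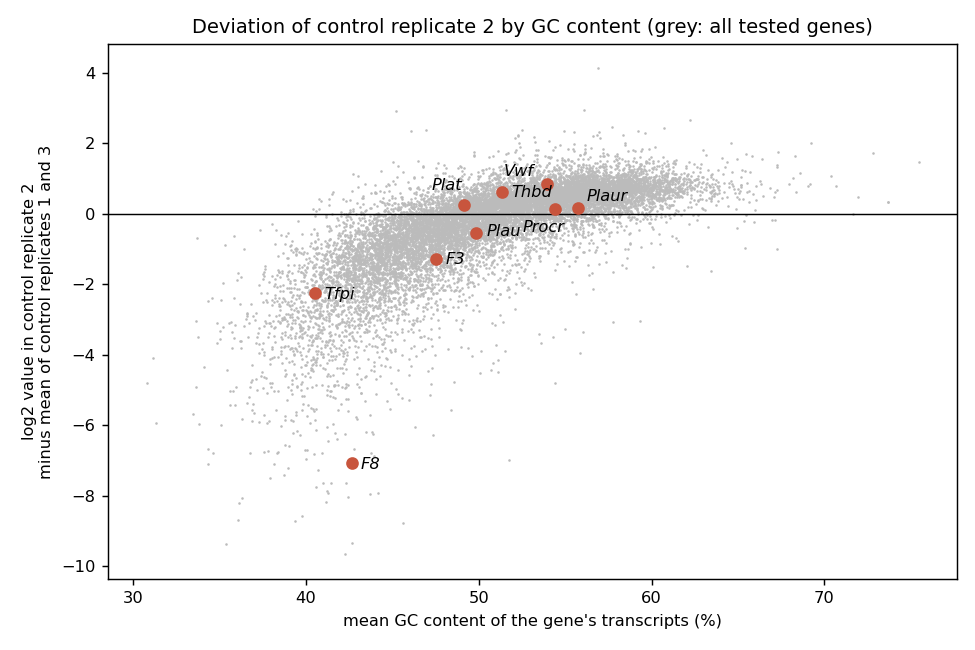
Mean GC content of each gene's transcripts in percent (x axis) against the log2 value in control replicate 2 minus the mean of control replicates 1 and 3 (y axis), with all tested genes in grey and the 9 members in red. F8 sits lowest of the members at -7.07, followed by Tfpi at -2.26 and F3 at -1.28, and Vwf sits highest at 0.86.

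Vwf (ENSMUSG00000001930.17, chr6:125546774-125686679, plus strand) was the most read member. Controls 1 to 3, in that order here and below, held 12718, 22463 and 12109 normalised reads, and Tbx1cko replicates 1 and 2 held 9688 and 10602. Both Tbx1cko libraries lay below all controls, and control replicate 2 was far above the rest. The fitted log2 difference, Tbx1cko minus control on log2(normalised count + 1), was -0.58 (SE 0.314, limma adjusted p = 0.762). Its 95% interval ran from -1.36 to 0.21. Without control replicate 2 the difference was -0.29, with an interval of -0.58 to -0.01. Its unadjusted p was then 0.0454 and its adjusted p 0.665 over all genes (limma). In that fit 7.42% of all genes had an unadjusted p under 0.05. Correction of each library for GC content took the Vwf difference to -0.41, or -0.25 without control replicate 2.

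The summed reads of endothelial markers, like those of Vwf, were lower in both Tbx1cko libraries than in any control. The 16 markers summed to 261760 to 366222 normalised reads in controls, highest in control replicate 2, and to 241653 to 253864 in Tbx1cko. Of the 16, 14 had a log2 difference below 0 and 2 above. Groups did not overlap for 9 in the lower direction, beside 13.9% of all genes, and for 1 (Erg) in the higher, beside 14.2%. With limma and with DESeq2 0 of the 16 passed. In bulk RNA, fewer cells of a type and less RNA per cell cannot be told apart. Scaled to the mean log2 value of these 16 markers, the Vwf difference was -0.34, and without control replicate 2 it was -0.17. The 8 lymphatic endothelial markers, all with a difference below 0, summed to 11446 to 14892 in controls and 8299 to 9716 in Tbx1cko. The 6 endocardial markers, also all below 0, summed to 11172 to 15985 and 8652 to 9226. With limma 0 of either list passed, and with DESeq2 over all libraries 0 as well. Without control replicate 2 DESeq2 called 5 of the 8 lymphatic and 0 of the 6 endocardial markers, beside 0.499% of all genes. The part of these 2 lists in the Vwf value was not tested. Platelets and their precursors also hold Vwf RNA. The 10 platelet markers summed to 1424 to 2477 in controls and 3301 to 3794 in Tbx1cko. Most of that sum was Pf4, a platelet chemokine gene, at 1049 to 1889 and 2726 to 2923. Of the 9 platelet markers tested, 2 were higher with no overlap (Pf4 and Ppbp), beside 14.2% of all genes. Lower with no overlap was 1 (Gp1ba, at 21.5 to 31.1 and 18.3 to 19.4), beside 13.9%. The others overlapped, Itga2b and Gp9 with log2 differences of 0.0058 and -0.24. DESeq2 called 0 of the 9 over all libraries and 1 without control replicate 2, beside 0.0279% and 0.499% of all genes. That gene was Pf4 (DESeq2 adjusted p = 0.00733). None of the 10 platelet markers was at 0 in any library, and their part in the Vwf value was not tested.

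F8 (ENSMUSG00000031196.13, chrX:75172715-75382615, minus strand) encodes factor VIII, which endothelial cells make and which circulates bound to von Willebrand factor. The controls held 122, 0 and 145.8 normalised reads of it, and the Tbx1cko libraries 161 and 175.3. The Tbx1cko libraries lay above all controls, and the 0 in control replicate 2 stands for 0 recovered reads where the other libraries held 108 to 176. A count of 0 allows up to 3 reads, or 2.76 normalised reads, for counting error alone. The fitted log2 difference of 2.69 (SE 2.27, limma adjusted p = 0.762) rests on that library and moves with the pseudocount, from 1.92 with 5 to 3.02 with 0.5. Without control replicate 2 it was 0.33, with an interval of -0.12 to 0.78, and the groups still did not overlap. In that fit the groups did not overlap in the higher direction for 19.7% of all genes. With correction for GC content the F8 difference was 1.93 over all libraries and 0.22 without control replicate 2.

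F3 (ENSMUSG00000028128.13, chr3:121723537-121735048, plus strand), the tissue factor gene, was scarce in these cells. Its normalised read counts were 58.8, 19.3 and 39.5 in the controls and 43 and 38.7 in Tbx1cko, from 21 to 52 recovered reads a library. The Tbx1cko values fell inside the control range. The log2 difference was 0.19 (SE 0.529, limma adjusted p = 0.883), and without control replicate 2 it changed sign, at -0.24 with an interval of -0.95 to 0.48. Fibroblasts, mural cells and cardiomyocytes around vessels also carry tissue factor. The 9 fibroblast markers summed to 21572 to 38289 in controls and 19906 to 40261 in Tbx1cko, the 11 mural markers to 49933 to 61465 and 40305 to 42194, and the 8 cardiomyocyte markers to 5927 to 12822 and 7088 to 8182. Of the 8 cardiomyocyte markers, 5 had a log2 difference below 0 and 3 above. Without control replicate 2 only 2 of the 8 were below 0, and the median was 0.31. In that fit 5 were higher with no overlap between groups and 1 was lower, beside 19.7% and 17.7% of all genes. Over all libraries DESeq2 called 1 of the 8, Myl7 (adjusted p = 0.0349), beside 0.0279% of all genes. It had 72.3, 320.1 and 53.6 in the controls and 10.1 and 9.17 in Tbx1cko. Of the 11 mural markers, 10 had a log2 difference below 0 and 1 above. Groups did not overlap for 9 in the lower direction, beside 13.9% of all genes. DESeq2 called 0 of the 11 over all libraries and 6 without control replicate 2, beside 0.0279% and 0.499% of all genes. No defining marker of the 3 cell types was at 0, and the part of these cells in the F3 count was not tested.

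Tfpi (ENSMUSG00000027082.15, chr2:84432855-84476775, minus strand) encodes the inhibitor of the tissue factor and factor VIIa complex. Its normalised read counts were 949, 219 and 1164 in the controls and 1094 and 1195 in Tbx1cko. Control replicate 2 was low by itself, and the other 4 libraries overlapped. The log2 difference of 0.87 (SE 0.748, limma adjusted p = 0.762) became 0.12 without that library, with an interval of -0.18 to 0.43. Correction of each library for GC content, with all 5 kept, turned it to -0.11.

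The balance of starter and brake was read as the ratio of F3 to Tfpi normalised counts. It was 0.0619, 0.0882 and 0.034 in the controls and 0.0393 and 0.0324 in Tbx1cko. The highest value again belonged to control replicate 2, and the groups overlapped. The mean log2 ratio differed by -0.68, or -0.36 without that library, with an exact permutation p of 0.4 (2-sided). With 3 libraries against 2 the smallest p that this test can give is 0.2. Benjamini-Hochberg adjustment over this ratio and that of Plau to Plaur, given below, took this exact p to 0.8.

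Thbd (ENSMUSG00000074743.4, chr2:148404466-148408188, minus strand), the thrombomodulin gene, followed the order of Vwf. Its normalised read counts were 9313, 12988 and 7643 in the controls and 6745 and 7603 in Tbx1cko. Both Tbx1cko values lay below all controls, but the higher of them was close to control replicate 3. Its log2 difference was -0.44 (SE 0.266, limma adjusted p = 0.762), and without control replicate 2 it was -0.24, with an interval of -0.54 to 0.07. Relative to the endothelial markers it was -0.20, and -0.11 without that library.

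Procr (ENSMUSG00000027611.12, chr2:155751117-155755471, plus strand) encodes the receptor that presents protein C to thrombomodulin. It held 755, 1031 and 1142 normalised reads in controls 1 to 3, against 816 and 725 in Tbx1cko. Control replicate 1 lay between the Tbx1cko libraries, so the groups overlapped, and it was the only member for which control replicate 2 was inside the range of the rest. Its log2 difference was -0.32 (SE 0.252, limma adjusted p = 0.762) and -0.27 without control replicate 2, with an interval of -0.67 to 0.13. Correction for GC content brought the first of these to -0.14.

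**Figure D2:**
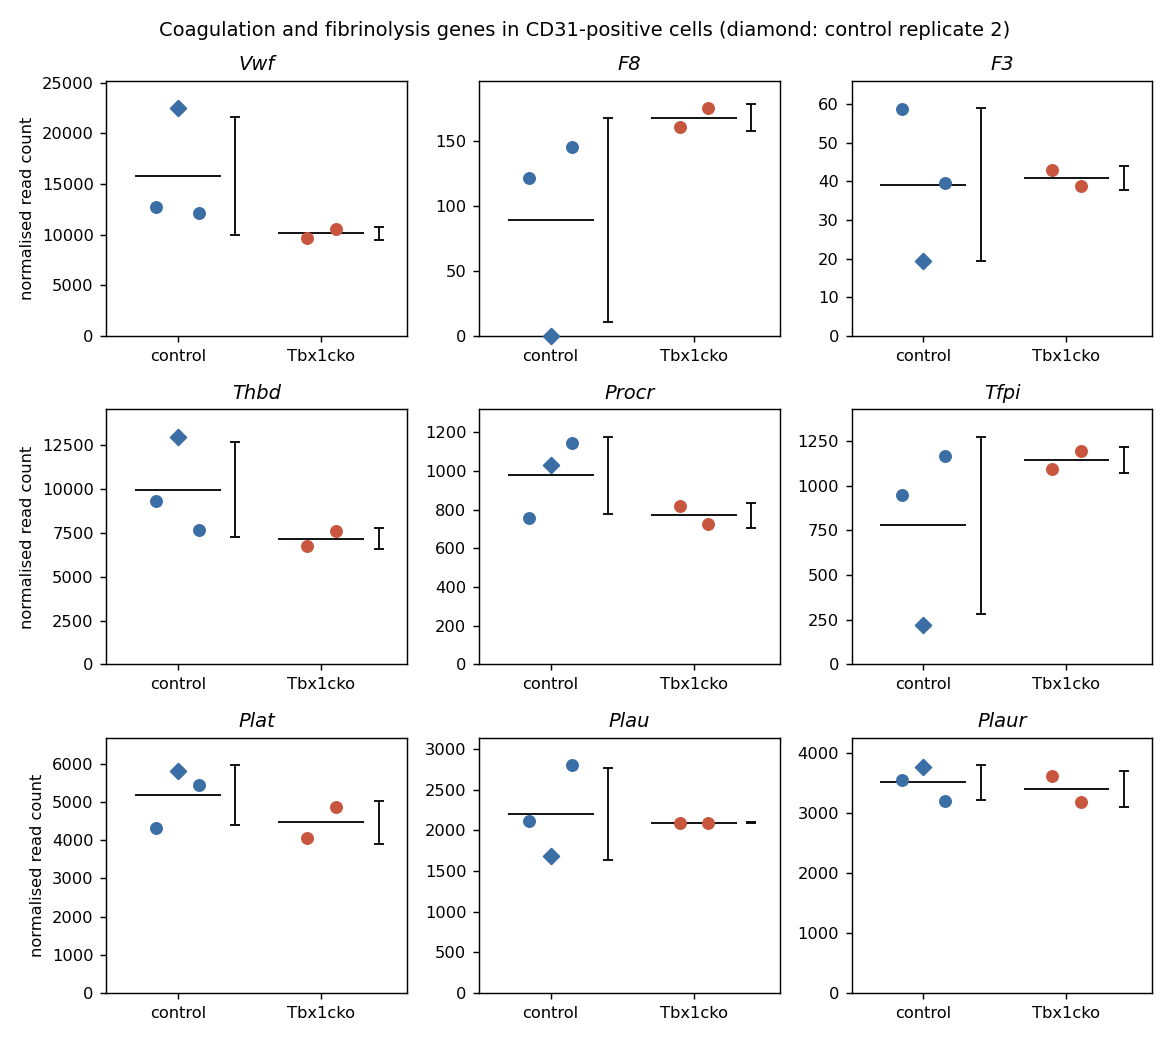
Normalised read counts of the 9 members (y axes, each from 0) in the 3 control libraries (blue, control replicate 2 as a diamond) and the 2 Tbx1cko libraries (red); lines are group means and bars the SD. Control replicate 2 is highest for Vwf, at 22463, and Thbd, at 12988, and lowest for F8, at 0, and Tfpi, at 219.

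Plat (ENSMUSG00000031538.6, chr8:22757727-22782844, plus strand) encodes tissue plasminogen activator, which works on plasminogen bound to fibrin. Its normalised read counts were 4306, 5802 and 5437 in the controls and 4065 and 4866 in Tbx1cko. The groups overlapped, with control replicate 1 between the Tbx1cko libraries. A log2 difference of -0.21 was fitted (SE 0.213, limma adjusted p = 0.762), and one of -0.12 without control replicate 2, with an interval of -0.44 to 0.20. Relative to the endothelial markers it was 0.03.

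Plau (ENSMUSG00000021822.3, chr14:20836660-20843385, plus strand) encodes urokinase, the activator tied to cell surfaces and to moving cells. It held 2113, 1681 and 2802 normalised reads in controls 1 to 3, against 2097 and 2090 in Tbx1cko. The Tbx1cko libraries were nearly equal and inside the control range. The log2 difference was -0.04 (SE 0.263, limma adjusted p = 0.956). Without control replicate 2 it was -0.22, with an interval of -0.53 to 0.10, and the groups no longer overlapped, since control replicate 1 was barely above them. Without control replicate 3 it had the other sign, at 0.15.

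Plaur (ENSMUSG00000046223.10, chr7:24462484-24475968, plus strand), the urokinase receptor gene, had the smallest standard error of the members. Its normalised read counts were 3549, 3774 and 3205 in the controls and 3612 and 3192 in Tbx1cko. The groups covered nearly the same range. The log2 difference was -0.04 (SE 0.18, limma adjusted p = 0.923), with an interval of -0.50 to 0.41, and without control replicate 2 it was 0.01, with an interval of -0.26 to 0.28. These intervals leave room for a modest change in either direction. The ratio of Plau to Plaur was 0.595, 0.445 and 0.874 in the controls and 0.581 and 0.655 in Tbx1cko (exact permutation p = 1, 2-sided).

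Plau and Plaur are also genes of macrophages and neutrophils, which were present. The 10 monocyte and macrophage markers summed to 56823 to 94446 normalised reads in controls, lowest in control replicate 2, and to 90155 to 92853 in Tbx1cko. Of the 7 neutrophil markers, 6 were matched and summed to 591 to 958 in controls and 1328 to 1363 in Tbx1cko. All 6 had a log2 difference above 0, at a median of 1.91, or 1.26 without control replicate 2. Groups did not overlap for 5 in the higher direction, beside 14.2% of all genes. With limma 0 of the 6 passed. DESeq2 called 0 over all libraries and 1, S100a9, without control replicate 2, beside 0.0279% and 0.499% of all genes. The monocyte marker Ccr2, whose transcripts hold 39.4% G and C, was at 0 in control replicate 2 and at 415 to 607.3 elsewhere. Control replicate 2 lay outside the range of the other 4 libraries for 8 of the 10 monocyte and macrophage markers, beside 82.6% of all genes. It lay inside that range for Cd68, at 3623, and C1qa, at 7295. The part of all these markers in the Plau and Plaur counts was not tested.

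**Figure D3:**
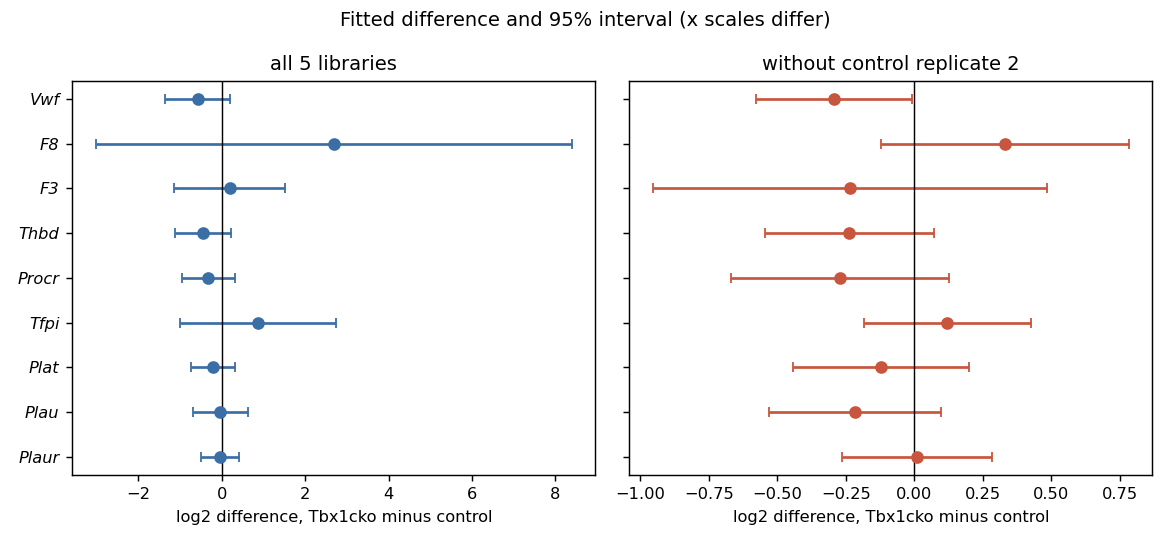
Fitted log2 difference of each member, Tbx1cko minus control (x axis), with its 95% interval as a bar, over all 5 libraries (left) and without control replicate 2 (right, on a narrower scale). All 9 intervals include 0 on the left, where that of F8 reaches from -3.02 to 8.39, and 8 of 9 include 0 on the right, where that of Vwf ends at -0.01.

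Leaving out control replicate 2 narrowed the interval of each member. The log2 difference was below 0 for 6 of 9 members with and without it, beside 47.6% and 46.6% of all genes, but Plaur left that set and F3 joined it. The median over the members was -0.04 with all libraries and -0.22 without it, beside 0.03 and 0.02 over all genes tested. The groups then did not overlap for 3 members in the lower direction (Vwf, Thbd and Plau) and for F8 in the higher, beside 17.7% and 19.7% of all genes. Without it, limma called 0 members and 3 of all genes (0.0209%), and DESeq2 called 0 members and 66 of all genes (0.499%).

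Compared per length, as normalised reads per kilobase of annotated exon, the members differed widely. Plaur, Thbd and Plat led, with medians over the 5 libraries of 2357, 2053 and 1927 per kilobase. Their ranges overlapped, at 2119 to 2506, 1812 to 3489 and 1610 to 2298, so their order is not settled. Vwf, whose long transcript collects many reads, followed at 1238 (990 to 2296), and its range overlapped those of Plaur, Thbd and Plat through control replicate 2. At its lower end it overlapped that of Plau, though Vwf was above Plau in each library. Plau had 895 (718 to 1196), Procr 511 (454 to 715) and Tfpi 207 (41.4 to 226). F3 had 21.1 (10.3 to 31.4) and F8 14.9 (0 to 17.9), with overlapping ranges, and both lay below Tfpi in all libraries.

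**Figure D4:**
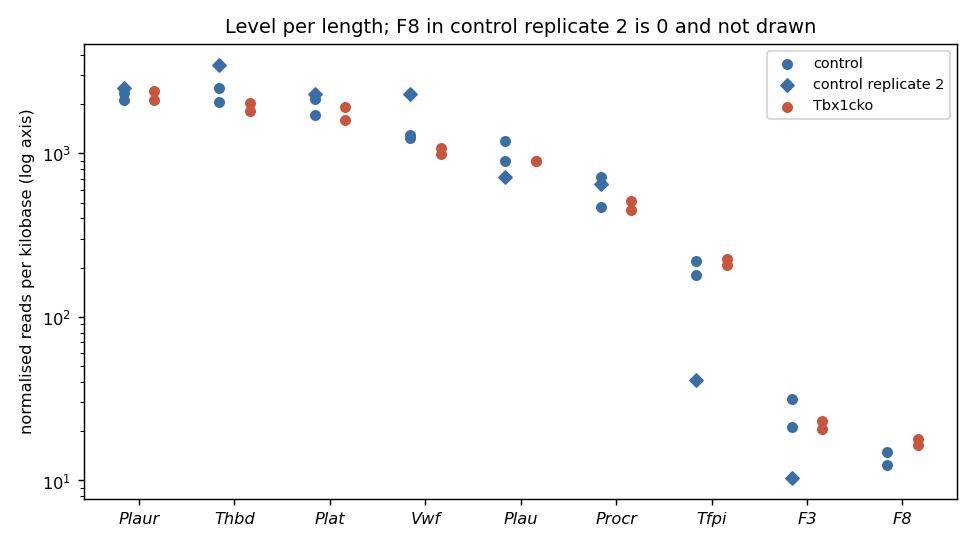
Normalised reads per kilobase of exon on a log axis for the 9 members, ordered by their median, in control (blue, control replicate 2 as a diamond) and Tbx1cko (red) libraries. Plaur, Thbd and Plat lie highest, with medians of 1927 to 2357, and F3 and F8 lowest, with medians of 21.1 and 14.9; F8 in control replicate 2 is 0 and is not drawn.

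Genes of other roles in clotting were read from lists. Of 19 procoagulant genes 8 could be tested, and 0 passed with limma; 7 of the 8 had a log2 difference above 0, with a median of 0.31, or 0.15 without control replicate 2. F13a1, the subunit of factor XIII that cross-links fibrin and that macrophages express, held 3639, 1178 and 3647 normalised reads in controls 1 to 3, against 4934 and 3494 in Tbx1cko. F5, the cofactor of factor Xa, had 94.9, 98.4 and 148.7 and then 156.4 and 144.7, and F7 36.2, 111.3 and 107.3 and then 95.1 and 149.8. Ggcx, the carboxylase that vitamin K-dependent factors need, had 392, 490 and 391 and then 348 and 342. It was the 1 of the 8 that was lower with no overlap between groups, beside 13.9% of all genes. Mcfd2, which helps factors V and VIII leave the endoplasmic reticulum, was the 1 that was higher with no overlap, at 2268, 2150 and 2237 and then 2376 and 2504, beside 14.2%.

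Of 17 anticoagulant genes 11 could be tested, 6 with a difference below 0 and 5 above, with a median of -0.10, or 0.03 without control replicate 2. With limma 0 passed. Serpine2, protease nexin 1, an inhibitor of thrombin and urokinase, held 1211, 705 and 784 normalised reads in controls 1 to 3, against 546 and 515 in Tbx1cko. Both Tbx1cko libraries lay below all controls, at a log2 difference of -0.72 (limma adjusted p = 0.762). Without control replicate 2 it was lower at -0.88 (limma adjusted p = 0.212, DESeq2 adjusted p = 0.00789), the only gene of this list that DESeq2 called in that fit. Klf2 and Klf4 encode flow-induced transcription factors known to raise thrombomodulin. Klf2 had 15615, 30600 and 14288 in the controls and 11441 and 11806 in Tbx1cko, and Klf4 had 15642, 21616 and 13841 and then 11749 and 13377. In both genes the Tbx1cko libraries were the lowest and control replicate 2 the highest. Their transcripts hold 61.6% and 61.5% G and C. Correction for GC content took the log2 difference of Klf2 from -0.71 to -0.28 and that of Klf4 from -0.42 to 0.0094, while that of Thbd was -0.42 with it. Nos3, the endothelial nitric oxide synthase, had 2397, 4280 and 2559 and then 2284 and 1879.

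Of 13 fibrinolysis genes 9 could be tested, 3 with a difference below 0 and 6 above, at a median of 0.13 that became -0.02 without control replicate 2. With limma 0 passed, and DESeq2 without that library called 1, Vtn. Vitronectin, its product, is a matrix and plasma protein that binds the urokinase receptor. Vtn held 689, 1231 and 432 normalised reads in controls 1 to 3, against 217 and 282 in Tbx1cko, a log2 difference of -1.53 (limma adjusted p = 0.762) and of -1.14 without control replicate 2 (limma adjusted p = 0.199, DESeq2 adjusted p = 0.00285). Vtn is also one of the 11 mural markers, whose sums are given above and did not overlap between groups, and their part in this value was not tested. S100a10, which with annexin A2 forms a plasminogen and tissue plasminogen activator receptor, had 2940, 3489 and 3544 and then 4126 and 4025, higher in both Tbx1cko libraries than in any control. Mrc2, the urokinase receptor-associated collagen receptor, had 576, 559 and 388 and then 227 and 456. Serpinb2, which encodes an inhibitor of urokinase, had 59.9, 11 and 102.6 and then 91.5 and 65.2, with control replicate 2 far below the rest.

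Weibel-Palade bodies are the endothelial granules that store von Willebrand factor, and 13 of their genes were tested, 7 with a difference below 0 and 6 above, at a median of -0.03, or -0.04 without control replicate 2. With limma over all libraries 0 passed, and DESeq2 called 1, Selp (adjusted p = 0.0349). Selp, P-selectin, which shares the granule with von Willebrand factor, held 3774, 3379 and 3472 normalised reads in controls 1 to 3, against 1364 and 1789 in Tbx1cko. The controls were close together, control replicate 2 included, and both Tbx1cko libraries were well below them. Without control replicate 2 Selp was lower at a log2 difference of -1.21, where Vwf had -0.29; Selp passed (limma adjusted p = 0.0174, DESeq2 adjusted p = 9.77e-10) and Vwf did not (limma adjusted p = 0.665). With correction for GC content in that fit Selp kept a difference of -1.24 but no longer passed (limma adjusted p = 0.0827). The difference between these genes was not tested. Cd63, a membrane protein of the granule, had 3172, 2430 and 2927 in the controls and 3509 and 4046 in Tbx1cko, and Angpt2, its stored angiopoietin, had 1014, 1156 and 1173 and then 1116 and 871.

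Of 8 genes of thrombin receptors and their signalling 7 could be tested, 0 passed with limma, and 3 had a difference below 0 and 4 above. F2r, the main thrombin receptor of the endothelium, held 4134, 3200 and 4310 normalised reads in controls 1 to 3, against 3774 and 3832 in Tbx1cko. These lay above control replicate 2 and below both other controls, at a log2 difference of -0.02, or -0.15 without that library. F2rl1 had 176, 183 and 216 and then 237 and 120, and Arrb2, an arrestin that such receptors recruit, had 1268, 1305 and 1092 and then 1403 and 1386, higher in both Tbx1cko libraries.

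**Figure D5:**
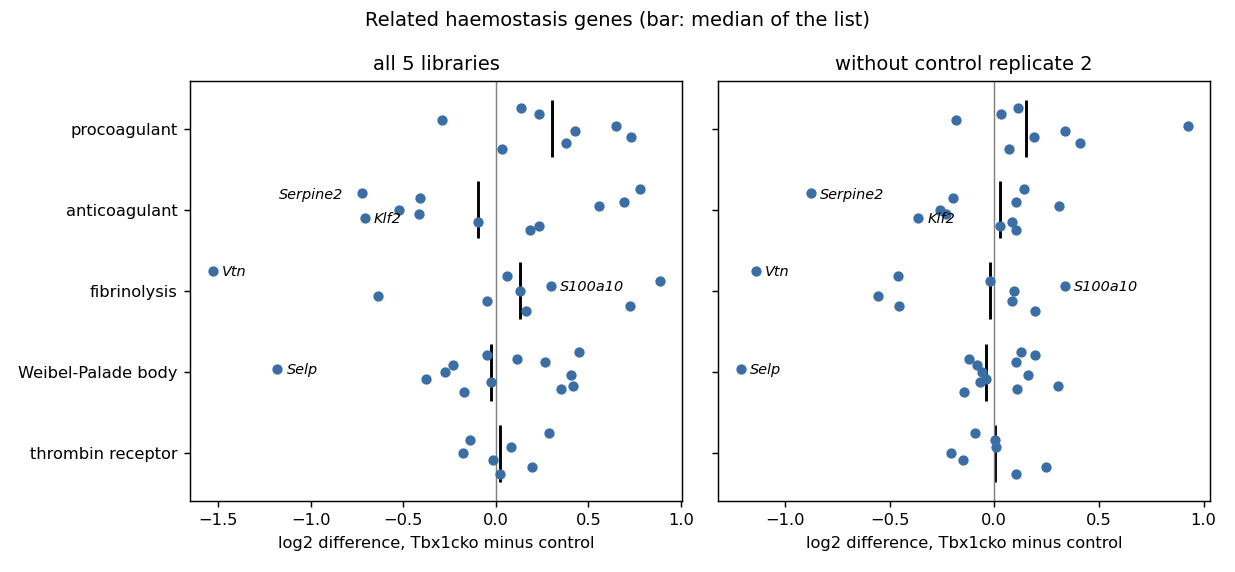
Log2 differences, Tbx1cko minus control (x axes), of the tested genes of 5 related lists, over all 5 libraries (left) and without control replicate 2 (right); each point is a gene and each black bar the median of its list. Selp, at -1.18 and -1.21, and Vtn, at -1.53 and -1.14, lie farthest below 0 in both panels.

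F3 and Plaur are known as genes that stress and dissociation of tissue can induce, so their start regions and the immediate early genes were set beside them. RefSeq promoters on GRCm38.p6 were matched for 5 members, F8, F3, Procr, Tfpi and Plaur, while Vwf, Thbd, Plat and Plau had no match. For each gene only the first listed start was used. The starts so used for F8, Procr and Tfpi lie inside the gene spans given above. The 250 bases before the start of F3 (chr3:121723287-121723536, plus strand) and of Plaur (chr7:24462233-24462482, plus strand) read as follows, with matches to the searched motifs in capitals.
F3: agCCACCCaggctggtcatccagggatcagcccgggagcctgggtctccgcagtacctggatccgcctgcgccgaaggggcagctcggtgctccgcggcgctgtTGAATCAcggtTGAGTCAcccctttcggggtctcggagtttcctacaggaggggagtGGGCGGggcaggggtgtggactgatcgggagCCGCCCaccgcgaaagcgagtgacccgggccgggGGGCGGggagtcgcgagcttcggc
Plaur: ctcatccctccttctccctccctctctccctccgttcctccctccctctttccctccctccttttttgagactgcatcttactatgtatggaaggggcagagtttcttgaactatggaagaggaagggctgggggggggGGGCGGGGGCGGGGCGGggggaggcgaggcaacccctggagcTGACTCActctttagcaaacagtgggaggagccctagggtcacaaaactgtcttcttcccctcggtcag
Motifs were searched on both strands, from 250 bases before to 50 after the start. F3 held a pair of AP-1 matches (TGANTCA), at -146 and -135, and Plaur and Procr 1 each, at -69 and -154, so 3 of 5 members held the motif, beside 7.81% of 32851 promoters. The Sp1 letters (GGGCGG) were matched in 3 of the 5, beside 35.7% of all promoters, and the Plaur matches at -111, -105 and -100 touch or overlap. A KLF box (CCACCC) was matched in 2, beside 10340 of the 32851 promoters. The letters TATAAA were also matched in 2, beside 13.6%, on the minus strand at 44 bases after the start in F3 and at -127 in Tfpi. The T-box motif AGGTGTGA was matched in 0 of the 5, beside 1.28% of promoters. The cyclic AMP element TGACGTCA was matched in 0 of the 5 as well, beside 1.79%. A match is a run of letters and not a site shown to be bound.

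Among the genes that AP-1 factors and other immediate early proteins come from, summed reads were lower in Tbx1cko. The 20 immediate early and dissociation genes summed to 350129 to 646739 normalised reads in controls, highest in control replicate 2, and to 278926 to 319327 in Tbx1cko. With limma 0 of 20 passed, and 19 had a log2 difference below 0, beside 47.6% of all genes. Their median was -0.73, or -0.47 without control replicate 2, and correction for GC content took these to -0.39 and -0.37. Of the 20, 16 were lower with no overlap between groups, beside 13.9% of all genes. DESeq2 called 0 over all libraries and 2 without control replicate 2, beside 0.0279% and 0.499% of all genes. Fos had 78699, 111159 and 64328 in the controls and 53914 and 60151 in Tbx1cko. Since the labels give no batch, handling of the tissue and genotype cannot be told apart.

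The gene most like each member over the 5 libraries was found among 10086 others with a mean of at least 100, by the root mean square difference of centred log2 values. The nearest of so many genes over 5 libraries is close by selection, so likeness here does not show shared regulation. For Vwf it was Lama5, a laminin chain of vascular basement membranes, at 0.0189, and for Thbd it was Tjap1 at 0.0218. Lama5, like Vwf, stood out in control replicate 2, at 14294 normalised reads against 6090 to 8255 elsewhere. Plat was nearest to Mast4 (0.0268), Plaur to Josd1 (0.0301), Plau to Pde4d (0.0452), Procr to Oxnad1 (0.0873) and F3 to the pseudogene Tpt1-ps3 (0.0686), whose count is uncertain because it resembles its parent gene. Tfpi was nearest to Snx13 (0.0376) and F8 to Slc25a46 (0.145), whose normalised counts were 443, 3.68 and 607 in the controls and 680 and 632 in Tbx1cko.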

How the data were processed

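Polyadenylated RNA of CD31-positive cells was measured in 3 control and 2 Tbx1cko libraries, grouped and numbered by their titles. Per the labels' protocols, TRIzol LS was used to extract the RNA and a TruSeq kit of Illumina to make the libraries. The submitters' processing notes name GRCm38 (mm10), STAR 2.5.2b, DESeq, DESeq2 1.20.0 and R 3.5.1. The read counter, annotation and strand setting were not given in the sources used here. Reads of overlapping or antisense genes may therefore be shared between them. The authors deposited 1 signal value per gene and library, namely reads over a size factor of that library. Dividing by the smallest value above 0 in each library gave whole reads for 100% of values, within 0.01.

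The 14339 genes with a mean of at least 10 were tested with limma 3.58.1 (R 4.3.3) after adding a pseudocount of 1 and taking log2; genotype was the sole term, with a trended prior, 2-sided tests and Benjamini-Hochberg adjustment over all of them at 0.05. The pseudocount understates changes of low genes. edgeR 4.0.16 and DESeq2 1.42.0 on recovered reads, voom, other pseudocounts, filters and scalings, a GC correction (loess, span 0.3, with GENCODE M21 transcripts, 96% of tested genes), scaling to endothelial markers, a replicate block and leaving out each library were alternatives. Exon lengths are unions over GENCODE basic transcripts. Lengths and GC came by symbol. No pair of libraries agreed within sampling noise (chi-square per degree of freedom at least 12.98). The tests were also run on counts simulated with the means and spread found without control replicate 2, and with no GC trend. That check therefore does not cover the effect of a library like control replicate 2.

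The members and lists were chosen with earlier results of these data known. Named genes are the members, Tbx1, partners of ratios, the nearest gene of each member, and marker genes beside a result. Others are among the 4 genes of each related list with the smallest unadjusted p. Vamp3 and Rab27a of the Weibel-Palade list and Gna13 and Gna12 of the thrombin receptor list also met this rule but are not described. One gene of the fibrinolysis list, with its ratio to a member, is not reported here, and counts and medians of that list leave it out. The choice of F2r, Mcfd2, Angpt2 and Fos, outside the rule, came after seeing their values. Intervals and floors for single counts cover counting error only.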

Additional observations from a re-analysis of the deposited data

How the results depend on the processing

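No paired analysis is supported by the labels: the numbers 1 and 2 occur in both groups, but nothing says that they mark a shared animal or day, and deviations of same-numbered libraries correlated at -0.06 and -0.05 across genes. With the replicate number as a block, 3 genes and 0 members passed. Under all 23 alternatives, of which 3 were chosen after seeing the data, 0 members passed. The count of all genes past the threshold, 0 in limma, was 4 with DESeq2 and 0 to 3 when a library was left out (3 without control replicate 2). In the added fits without that library it was 3 with edgeR, 66 with DESeq2 and 2 with scaling to endothelial markers.

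Vwf, Thbd, Procr and F8 kept their sign under every alternative run, at -0.74 to -0.17, -0.62 to -0.11, -0.50 to -0.08 and 0.22 to 3.93 on the log2 scale. For Vwf, Thbd and F8, whose groups did not overlap, leaving out a library could not change the sign. F3 changed sign with GC correction (-0.057) and, without control replicate 2, with limma (-0.24), GC correction (-0.28), edgeR (-0.27), DESeq2 (-0.28) and endothelial scaling (-0.11). Tfpi did so with GC correction (-0.11). Plat did so with endothelial scaling, at 0.031 and, without that library, 0.0018. Plau did so with the replicate block (0.15), endothelial scaling (0.20) and without control replicate 3 (0.15). Plaur did so with GC correction (0.19), endothelial scaling (0.20) and without Tbx1cko replicate 2 (0.045), and, without control replicate 2, with limma (0.01), GC correction (0.077) and endothelial scaling (0.13). When single libraries were left out, F3 ranged from -0.24 to 0.54, Plau from -0.22 to 0.15 and Plaur from -0.13 to 0.045. The cause was not tested. A mean of at least 50 left F3 out of the test. The depth limits F3 and F8 most, at 21 to 52 and 0 to 176 reads a library.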
